A study of Homo sapiens with 6 samples.

Results

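Metallothioneins and the genes that move zinc across membranes were examined in libraries labelled HepG2, the name of a human hepatoma line, after knockdown of ARHGEF2, a guanine nucleotide exchange factor for RhoA. The set was fixed by name and held 9 genes. These were the metallothioneins MT2A, MT1X, MT1E, MT1F, MT1G and MT1M, the metal-responsive transcription factor MTF1, the zinc exporter SLC30A1 (ZnT1) and SLC39A14 (ZIP14), which carries zinc into the cytosol. Of these, 7 were read from the 27605 genes in the table, and MT1G and MT1M were not analysed here. The control group shNC (3 libraries, genotype label WT) and the group shARHGEF2 (3 libraries, genotype label ARHGEF2 knockdown) were both labelled as HepG2. Knockdown was by lentivirus with a short hairpin RNA, and shNC was the study's control for it. The labels do not say whether the 3 knockdown libraries share one hairpin or come from separate cultures, so p-values measure the spread between these libraries, which may be technical. The comparison asked whether lowering ARHGEF2 altered the RNA of the zinc-buffering system.

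Metallothioneins are small cysteine-rich proteins that bind zinc and copper in metal-thiolate clusters, buffer free zinc and take up cadmium. MTF1 senses a rise in free zinc through its zinc fingers, enters the nucleus and binds metal response elements, short motifs in the promoters of the metallothionein genes and of SLC30A1. The SLC30A family moves zinc out of the cytosol, across the plasma membrane or into organelles, and the SLC39A family moves it in. In the liver, metallothioneins are induced by zinc, glucocorticoids and interleukin-6, and SLC39A14 by interleukin-6.

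Promoters are given first for the 3 members in which cores of the metal response element were found, since MTF1 acts through such motifs. RefSeq promoter sequences (GRCh38.p14, 250 bases before to 50 bases after RefSeq's start of the gene) matched 4 of the 9 members by symbol, namely MT2A, MT1X, SLC30A1 and MTF1. MT1E, MT1F, MT1G, MT1M and SLC39A14 were not matched. RefSeq's start is not that of the GENCODE 29 gene bounds given with the values, so the MT2A window lies inside those bounds, the SLC30A1 window wholly upstream of them and the MT1X window across their start, and positions in the windows count from RefSeq's start. Each window was searched on both strands for the 2 forms of the core, TGCACNC and TGCGCNC, which cannot match at the same place on one strand. Capitals mark every base inside a core on either strand, and each sequence reads 5′ to 3′ along the gene.
MT2A, chr16:56608334-56608633, plus strand: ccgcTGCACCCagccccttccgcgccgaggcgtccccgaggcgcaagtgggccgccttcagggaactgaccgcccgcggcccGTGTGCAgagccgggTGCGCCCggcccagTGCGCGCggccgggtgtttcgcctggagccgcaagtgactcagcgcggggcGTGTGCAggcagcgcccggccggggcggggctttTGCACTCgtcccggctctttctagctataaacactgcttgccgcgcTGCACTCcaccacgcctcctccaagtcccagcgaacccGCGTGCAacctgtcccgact
MT1X, chr16:56682220-56682519, plus strand: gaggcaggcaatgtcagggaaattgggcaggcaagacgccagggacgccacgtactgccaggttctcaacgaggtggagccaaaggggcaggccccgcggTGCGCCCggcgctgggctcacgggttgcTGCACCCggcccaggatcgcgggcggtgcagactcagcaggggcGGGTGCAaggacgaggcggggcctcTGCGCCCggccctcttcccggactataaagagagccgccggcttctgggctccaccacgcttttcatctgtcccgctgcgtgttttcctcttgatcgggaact
SLC30A1, chr1:211579112-211579411, minus strand: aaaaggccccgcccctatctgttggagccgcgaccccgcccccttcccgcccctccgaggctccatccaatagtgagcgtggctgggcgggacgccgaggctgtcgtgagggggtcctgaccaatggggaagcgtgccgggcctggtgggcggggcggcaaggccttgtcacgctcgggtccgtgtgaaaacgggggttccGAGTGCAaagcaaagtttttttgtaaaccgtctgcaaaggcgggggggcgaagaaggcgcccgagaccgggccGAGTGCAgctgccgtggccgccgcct
The MT2A window held 8 cores, 6 of the first form and 2 of the second, from position -246 to position 31 relative to RefSeq's start. The MT1X window held 4 cores, 2 of each form. The SLC30A1 window held 2 cores, both of the first form on the opposite strand, at positions -49 and 25. The MTF1 window held 0 cores, which says only that these letters are not in this window. Of 35116 promoters of the same length, 29.6% held at least 1 core, 8.6% at least 2, 0.601% at least 4 and 0.0199% at least 8. A match is a description of the sequence and not a measured binding site.

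Expression was given as FPKM, fragments scaled to transcript length and to library size, so levels of different genes can be compared per length. ARHGEF2 itself had 13.0 to 14.4 FPKM in shNC and 4.004 to 4.82 FPKM in shARHGEF2 cells, which is -1.47 ± 0.11 (SE) on the log2 scale (limma adjusted p = 0.00244). The spacing of low values gave a rough depth of 20040000 to 23320000 read pairs in a library, with 39.7% to 41.4% of low values near a whole number of pairs, so counts could not be recovered. Within each group the libraries departed from their mean in step with GC content. Across 12231 genes, which are not independent, Spearman's rho between that departure and GC ran from -0.523 in shNC replicate 2 to 0.601 in shARHGEF2 replicate 1. With transcript length it stayed between -0.157 and 0.121. The hepatocyte markers that were read went against the label of all 6 libraries, because HepG2 cells are known for abundant hepatocyte transcripts and these, apart from VTN, were near 0. Of a list of 11 hepatocyte markers, 5 were read, and ALB, APOB, TTR, TF, FGB and AHSG were not analysed here. Of the 5, VTN alone had a mean of at least 0.5 FPKM, and AFP, APOA1, HNF4A and SERPINA1 reached at most 0.248 FPKM. The cells are called shNC and shARHGEF2 cells below, by their labels. The summed hepatocyte markers, mostly VTN, ran from 5.62 to 5.96 FPKM in shNC and from 6.31 to 6.66 FPKM in shARHGEF2 cells. The sums over the epithelial markers (354.4 to 458.2 and 335.5 to 419.5 FPKM) and over the fibroblast markers (37.8 to 50.0 and 37.0 to 43.2 FPKM) overlapped between the groups, with EPCAM and CDH1 at most at 0.0547 FPKM. LUM made up most of the fibroblast sum (means 32.7 and 27.1 FPKM). Of 4 fibroblast markers tested, 1 was higher without overlap, beside 11.3% of all genes tested. This was COL1A1 (6.08 to 6.81 FPKM in shNC, 8.12 to 9.60 FPKM in shARHGEF2 cells). VTN and the endothelial marker PECAM1, each the only gene of its list tested, were also higher without overlap. The endothelial markers summed to 0.561 to 0.640 FPKM in shNC and 0.775 to 0.866 FPKM in shARHGEF2 cells, with CDH5 and VWF at most at 0.0261 FPKM, and all 4 leukocyte markers lay below 0.279 FPKM in every library. The part of these cell type markers in the results was not tested, and in such bulk samples fewer cells of a type and less RNA per cell cannot be told apart.

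No metallothionein passed the test, and their differences did not all have one direction. MT1E and MT1X had lower means in shARHGEF2 than in shNC cells, MT2A was close to level and MT1F had a higher mean. All 7 genes read averaged 0.5 FPKM or more and were tested with limma, among 12291 genes in all. At an adjusted p under 0.05, 0 of the 7 were called, where 0.277% of all genes tested were called. At an unadjusted p under 0.05 in limma there was 1 of 7, MT1E, against 13.7% of all genes. The groups did not overlap for 2 of the 7, MT1E and MT1F, against 20.5% of all genes, with 1 higher (11.3% of all genes) and 1 lower (9.17% of all genes), so neither share is a result about the set as a whole.

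**Figure D1:**
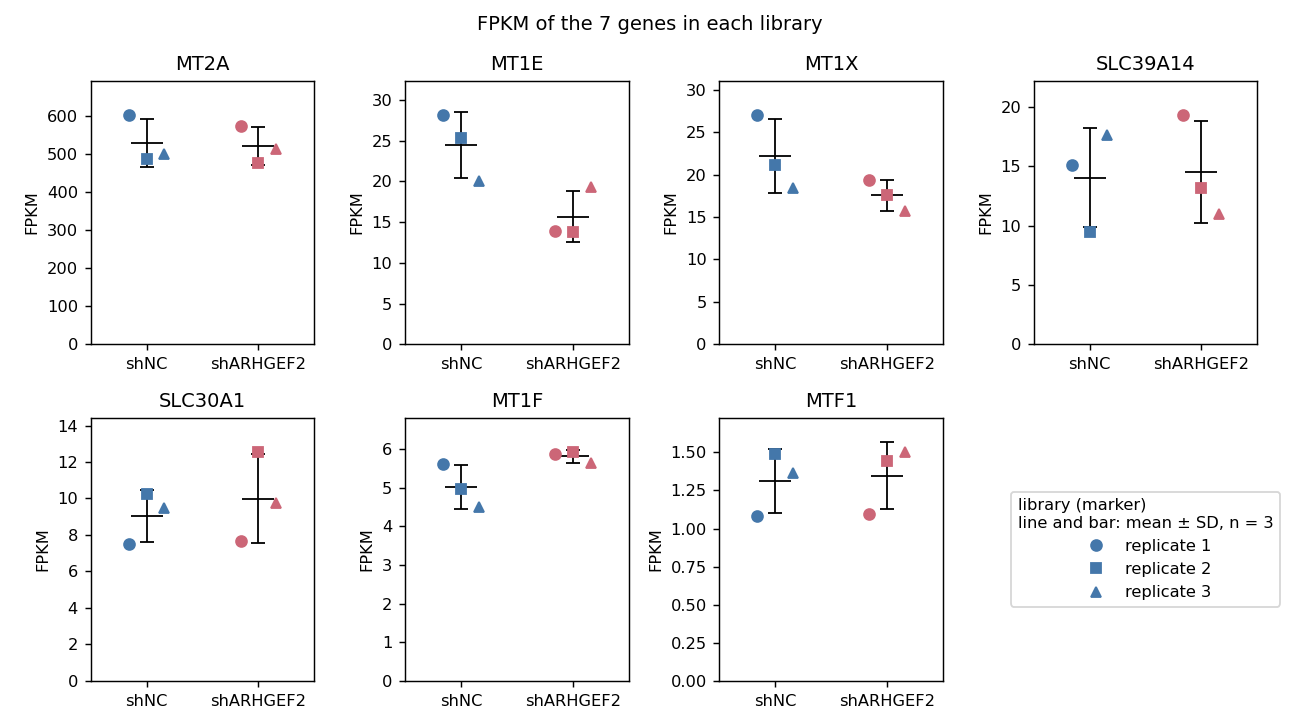
FPKM of the 7 genes in each library (vertical axes from 0, marker shape gives the replicate number, line and bar give mean ± SD, n = 3 per group). The MT1E points separate, with 13.8 to 19.3 FPKM in shARHGEF2 and 20.1 to 28.1 FPKM in shNC, whereas the MT2A, MTF1, SLC30A1 and SLC39A14 points intermingle.

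MT2A (ENSG00000125148) encodes the main human metallothionein and was by far the most abundant member. Its level was 601.1, 487.0 and 498.3 FPKM in shNC replicates 1 to 3 and 573.3, 475.0 and 513.8 FPKM in shARHGEF2 replicates 1 to 3. The 2 groups overlapped almost fully, and in each group replicate 1 was highest. The shNC mean was 529 ± 62.8 FPKM and the shARHGEF2 mean 521 ± 49.5 FPKM (SD, n = 3 each). On the log2 scale the difference was -0.02, with a 95% interval from -0.27 to 0.23 (limma adjusted p = 0.969; exact two-sided permutation p = 0.8). Its sign turned without shNC replicate 1 (0.076) or shARHGEF2 replicate 2 (0.044).

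MT1E (ENSG00000169715), a metallothionein of the MT1 branch, had the largest difference among the members. Its level was 28.1, 25.3 and 20.1 FPKM in shNC replicates 1 to 3 and 13.9, 13.8 and 19.3 FPKM in shARHGEF2 replicates 1 to 3. Every knockdown library lay below every control library, but the lowest control and the highest knockdown library were less than 1 FPKM apart. The means were 24.5 ± 4.07 and 15.7 ± 3.13 FPKM (SD, n = 3 each), a ratio of 0.639. In limma the log2 fold change was -0.62 ± 0.16 (SE), with a 95% interval from -0.99 to -0.25, an unadjusted p = 0.00439 and an adjusted p = 0.158. By p it ranked 338 of 12291 genes. An exact permutation test (two-sided) gave p = 0.1, the smallest that 3 libraries against 3 allow. Over the alternatives the log2 fold change stayed between -0.77 and -0.52 and the adjusted p between 0.0855 and 0.494 in limma, so MT1E was called in 0 of 15.

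MT1X (ENSG00000187193), a zinc- and cadmium-inducible member with 4 core motifs in its promoter, stood at 27.0, 21.1 and 18.5 FPKM in shNC replicates 1 to 3. In shARHGEF2 replicates 1 to 3 it stood at 19.4, 17.6 and 15.7 FPKM. The groups overlapped in one pair, shARHGEF2 replicate 1 being above shNC replicate 3. This gave a log2 fold change of -0.31 with a 95% interval from -0.64 to 0.02 (limma adjusted p = 0.402; exact two-sided permutation p = 0.2). Without shNC replicate 1 it shrank to -0.16.

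MT1F (ENSG00000198417), a less abundant MT1 gene, had 5.62, 4.96 and 4.50 FPKM in shNC replicates 1 to 3 and 5.89, 5.93 and 5.63 FPKM in shARHGEF2 replicates 1 to 3. The groups did not overlap, but only by the margin between 5.62 and 5.63 FPKM. The knockdown libraries were also closer to each other, with an SD of 0.1597 FPKM against 0.564 FPKM in shNC cells. The fitted log2 fold change was 0.18 with a 95% interval from -0.08 to 0.44 (limma adjusted p = 0.540; exact two-sided permutation p = 0.1, the smallest possible). It was 0.12 without shNC replicate 3 and 0.25 without shNC replicate 1.

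Since reads of close paralogs can be assigned to one another, the sum over the 4 metallothioneins read is given beside the single genes. The sum depends less than a single gene on how reads are assigned among these 4. It leaves out MT1G and MT1M, so it does not cover reads exchanged with those genes. It was 661.8, 538.4 and 541.4 FPKM in shNC and 612.4, 512.4 and 554.4 FPKM in shARHGEF2 replicates 1 to 3. The means, 580.5 ± 70.4 and 559.7 ± 50.2 FPKM (SD, n = 3 each), differed by less than the spread within either group, with a ratio of 0.964. MT2A made up 90.5% to 92.0% of the sum in shNC and 92.7% to 93.6% in shARHGEF2 cells, so the sum mostly repeats MT2A. Without MT2A the sum was 60.7, 51.4 and 43.1 FPKM in shNC and 39.1, 37.4 and 40.6 FPKM in shARHGEF2 replicates 1 to 3. These groups did not overlap, and the ratio of their means was 0.755. This smaller sum consists mostly of MT1E (means 24.5 and 15.7 FPKM) and MT1X (22.2 and 17.6 FPKM), so it mostly repeats those genes. The sums are given as a description, with no test, because the members were chosen with results of these libraries known.

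Proportions within a library do not depend on how libraries are scaled to each other. MT1E amounted to 4.68%, 5.20% and 4.04% of MT2A in shNC and to 2.42%, 2.91% and 3.75% in shARHGEF2 replicates 1 to 3. MT1X amounted to 4.49%, 4.33% and 3.70% and to 3.38%, 3.71% and 3.05%, overlapping by 1 pair of libraries. MT1F amounted to 0.935%, 1.02% and 0.903% and to 1.03%, 1.25% and 1.10%. So relative to MT2A in the same library the knockdown group was lower for MT1E and higher for MT1F without overlap. The ratio of MT1E to MT1F ran from 4.47 to 5.10 in the control libraries and from 2.33 to 3.42 in the knockdown libraries. This separation had to follow, because every knockdown library was already below every control for MT1E and above every control for MT1F. It is therefore no further observation beyond those genes. MT1X over MT1F ran from 4.10 to 4.80 in the controls and from 2.79 to 3.29 after knockdown. The ratio of MT1E to MT1X overlapped between the groups, with 1.04 to 1.20 in shNC and 0.717 to 1.23 in shARHGEF2 cells.

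**Figure D2:**
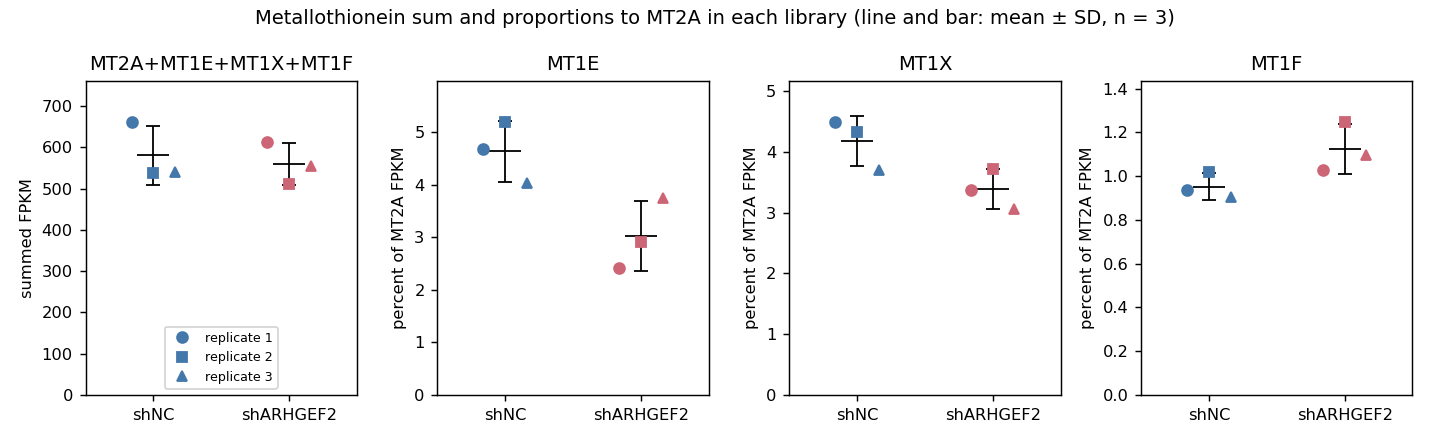
Sum of the FPKM of MT2A, MT1E, MT1X and MT1F, and MT1E, MT1X and MT1F as a percentage of MT2A, in each library (vertical axes from 0, marker shape gives the replicate number, line and bar give mean ± SD, n = 3 per group). The sums overlap, with 538.4 to 661.8 FPKM in shNC and 512.4 to 612.4 FPKM in shARHGEF2 cells. MT1E is at 2.42% to 3.75% of MT2A in shARHGEF2 and at 4.04% to 5.20% in shNC cells.

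How far the paralogs can be told apart was read from the GENCODE 29 transcripts. Of the stretches of 31 bases in MT1E transcripts, 15.6% also occurred in a transcript of another metallothionein gene or pseudogene. The shares were 7.25% for MT2A, 5.30% for MT1X and 3.25% for MT1F. The longest identical run of MT1E was 85 bases with MT1G, and the longest runs of MT2A and MT1X were 70 and 96 bases, also with MT1G. MT1E shared at most 32 bases with MT2A, 42 with MT1X and 50 with MT1F. At 150 bases, the length of 1 read, 0% of the stretches were shared for any of the members. For MT2A, MT1X and MT1E the longest runs were thus shared with MT1G, which was not analysed here, and how the authors' counting shared out such reads was not tested.

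The metallothionein genes lie in one cluster on chromosome 16, where GENCODE 29 places 16 genes and pseudogenes within 119 kb (GRCh38, chr16:56565049-56684196). MT2A occupies chr16:56608199-56609497, MT1E chr16:56625475-56627112, MT1F chr16:56657694-56660698 and MT1X chr16:56682424-56684196, all on the plus strand. MT1E (lower mean) and MT1X (lower mean) are separated by MT1F (higher mean). The limma intervals of MT1F (-0.08 to 0.44) and MT1X (-0.64 to 0.02) both include 0, so their signs are not established. Whether the difference keeps its direction along the cluster was therefore not settled. Among 9 other genes tested within 250 kb on either side, 0 were called, 2 had an unadjusted p under 0.05 in limma (13.7% of all genes tested) and 2 did not overlap between the groups (20.5% of all genes tested), with log2 fold changes from -0.73 to 0.94 and a median of 0.01.

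**Figure D3:**
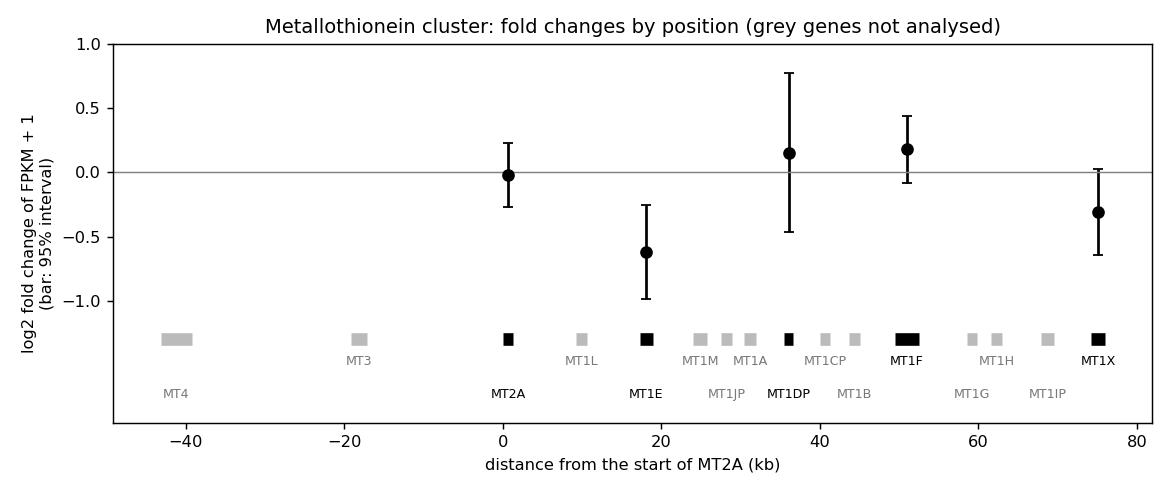
Log2 fold change of FPKM + 1 (shARHGEF2 minus shNC, points with 95% intervals from limma) against the distance from the start of MT2A in kb, with gene positions drawn to scale below and genes not analysed in grey. The MT1E point lies at -0.62 and the MT1X point at -0.31, with MT1DP (0.15) and MT1F (0.18) between them.

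The other metallothionein rows that could be tested, MT2P1 and MT1DP, were pseudogenes at low level. Of a list of 15 other metallothionein genes and pseudogenes, 5 were read, 2 reached a mean of 0.5 FPKM and 0 were called in limma. An unadjusted p under 0.05 in limma was found for 1 of the 2, beside 13.7% of all genes tested. MT2P1, a pseudogene of MT2A, had 1.81, 2.49 and 1.59 FPKM in shNC and 1.07, 1.70 and 0.876 FPKM in shARHGEF2 replicates 1 to 3, overlapping in 1 pair of libraries. On its 183-base transcript this amounted to roughly 3.74 to 10.2 estimated pairs of reads in a library, so few that counting error alone is large. Its log2 fold change was -0.43 with a 95% interval from -0.82 to -0.03 (limma adjusted p = 0.336). MT1DP had a mean of 0.452 FPKM in shNC and 0.601 FPKM in shARHGEF2 cells, with SDs of 0.427 and 0.438 FPKM (n = 3 each), and a log2 fold change of 0.15 (limma adjusted p = 0.861).

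MTF1 (ENSG00000188786, chr1:37809567-37859620, GRCh38, minus strand), the zinc-sensing activator of these genes, was the least abundant member. It had 1.08, 1.49 and 1.37 FPKM in shNC and 1.10, 1.44 and 1.502 FPKM in shARHGEF2 replicates 1 to 3. The groups covered nearly the same range, with replicate 1 lowest in each. On its single listed transcript of 7972 bases this amounted to roughly 177.8 to 279.3 estimated pairs of reads in a library. The difference was 0.02 on the log2 scale with a 95% interval from -0.27 to 0.31 (limma adjusted p = 0.972; exact two-sided permutation p = 0.7). Its sign turned without shNC replicate 1 (-0.053), shARHGEF2 replicate 2 (-0.011) or shARHGEF2 replicate 3 (-0.028), and with the trend on transcript length removed from each library (-0.010).

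SLC30A1 (ENSG00000170385, chr1:211571568-211578742, GRCh38, minus strand), the plasma membrane zinc exporter that MTF1 activates, had 7.48, 10.2 and 9.49 FPKM in shNC and 7.69, 12.5 and 9.76 FPKM in shARHGEF2 replicates 1 to 3. The groups overlapped, and in both of them replicate 1 was lowest and replicate 2 highest. The knockdown group differed by 0.11 on the log2 scale with a 95% interval from -0.29 to 0.52 (limma adjusted p = 0.844; exact two-sided permutation p = 0.6). It turned to -0.0049 without shNC replicate 1 and to -0.048 without shARHGEF2 replicate 2. The GC content of its transcript, 38.0%, was higher than that of only 3.20% of the genes tested. With the GC trend of each library removed, the standard error of its fold change was 0.10 in place of 0.18, and the fold change 0.13 (limma adjusted p = 0.535).

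SLC39A14 (ENSG00000104635, chr8:22367249-22434129, GRCh38, plus strand), an importer of zinc, iron and manganese, varied more between libraries of one group than SLC30A1. It had 15.1, 9.44 and 17.6 FPKM in shNC and 19.3, 13.2 and 11.01 FPKM in shARHGEF2 replicates 1 to 3. The lowest value was in a control library and the highest in a knockdown library. The estimate was 0.05 on the log2 scale with a 95% interval from -0.57 to 0.67 (limma adjusted p = 0.967; exact two-sided permutation p = 1). It turned to -0.19 without shNC replicate 2 and to -0.16 without shARHGEF2 replicate 1. With this spread, a change of nearly the size estimated for MT1E would not have been detectable.

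**Figure D4:**
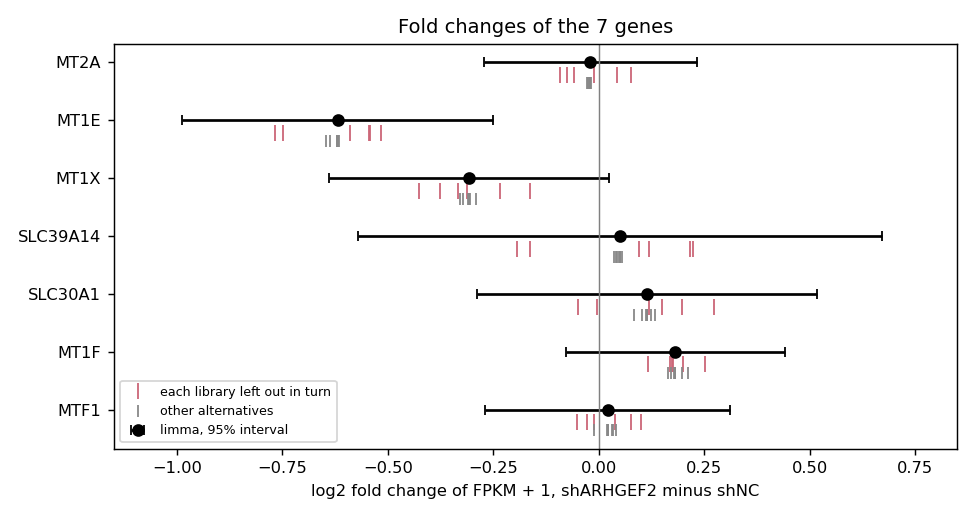
Log2 fold changes of FPKM + 1 (shARHGEF2 minus shNC) for the 7 genes, with 95% intervals from limma in black, the fits that each leave out 1 library in red and the other alternatives in grey. The red and grey marks of MT1E lie between -0.77 and -0.52, and those of MT2A, MTF1, SLC30A1 and SLC39A14 lie on both sides of 0.

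By mean FPKM over the 6 libraries the order was MT2A, MT1E, MT1X, SLC39A14, SLC30A1, MT1F and MTF1. MT2A was 26.1 times as high as MT1E, with no overlap. MT1E and MT1X could not be ordered, since their ranges overlapped and MT1E was higher in 4 of 6 libraries. MT1X and SLC39A14 overlapped in range, although MT1X was higher in 6 of 6 libraries, and SLC39A14 was above SLC30A1 in 5 of 6. SLC30A1 and MT1F did not overlap, and neither did MT1F and MTF1. Across all 6 libraries MT2A was high where SLC30A1 and MTF1 were low (Pearson's r = -0.93 and -0.92 on the log2 scale), and SLC30A1 and MTF1 went together (r = 0.85). These were picked as the strongest correlations among all pairs of the members read. The listed transcripts of MT2A have a median of 688 bases and 54.2% GC. Those of SLC30A1 and MTF1 are 5474 and 7972 bases long with 38.0% and 46.7% GC. Whether the libraries' differences in GC content and length bear on these correlations was not tested. MT1E, with a median of 704 bases and 53.5% GC, did not follow MT2A (r = 0.24). For MT1F (553 bases, 55.0% GC) r with MT2A was 0.36, and for MT1X (543.5 bases, 52.5% GC) it was 0.63. Among 5443 other genes averaging 5 FPKM or more, the patterns closest to MT2A over the 6 libraries were those of MLF2, COMTD1, DUSP23, DYNLRB1 and ABHD17A, with Pearson's r from 0.98 to 0.99, and 82 genes had r above 0.9.

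Among the other zinc transporters, SLC39A7, SLC39A13 and SLC39A1 had higher means in shARHGEF2 cells without overlap, and none passed the test. Of a list of 13 other SLC39A genes, 12 were read and 9 tested, of which 0 were called in limma. An unadjusted p under 0.05 in limma was reached by 3 of the 9, all higher. Over all 12291 genes tested, 996 were higher at such a p. The groups did not overlap for the same number of importers, where 11.3% of all genes tested were higher without overlap. The median log2 fold change was 0.20, beside -0.0016 over all genes tested. SLC39A7 (ZIP7), which releases zinc from the endoplasmic reticulum, had 85.1, 85.7 and 102 FPKM in shNC and 121, 128 and 122 FPKM in shARHGEF2 replicates 1 to 3. The knockdown libraries were tightly grouped above the highest control, and the difference was 0.44 ± 0.10 (SE) on the log2 scale (limma adjusted p = 0.117). Without shNC replicate 3 its limma adjusted p was 0.0489, just under the threshold.

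SLC39A13 (ZIP13), which moves zinc out of vesicles of the secretory pathway, had 3.07, 3.30 and 3.23 FPKM in shNC and 5.43, 3.96 and 5.17 FPKM in shARHGEF2 replicates 1 to 3. The lowest knockdown library still exceeded the highest control, and the difference was 0.47 ± 0.13 (SE) on the log2 scale (limma adjusted p = 0.180). SLC39A1 (ZIP1), a plasma membrane importer named after its values were seen, had 99.4 to 109.7 FPKM in shNC and 120.6 to 124.8 FPKM in shARHGEF2 cells (log2 fold change 0.22, limma adjusted p = 0.279). The other 6 importers tested ranged down to -0.64, the value of SLC39A9, which was named after its values were seen. SLC39A9 had the largest difference of the importers, but its groups overlapped. It had 1.14 to 3.87 FPKM in shNC and 0.726 to 1.53 FPKM in shARHGEF2 cells (limma adjusted p = 0.406). Of 10 other genes listed as exporters, 7 were read, 5 were tested and 0 were called in limma, with 0 at an unadjusted p under 0.05 and a median log2 fold change of -0.01. The groups did not overlap for 1 of the 5, beside 20.5% of all genes tested. This was SLC30A3, a transporter of vesicles, with 0.980 to 1.29 FPKM in shNC and 1.34 to 1.73 FPKM in shARHGEF2 cells (log2 fold change 0.25, limma adjusted p = 0.402). SLC30A7, which loads zinc into the Golgi, had means of 0.675 and 0.612 FPKM and a log2 fold change of -0.05 (limma adjusted p = 0.921).

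**Figure D5:**
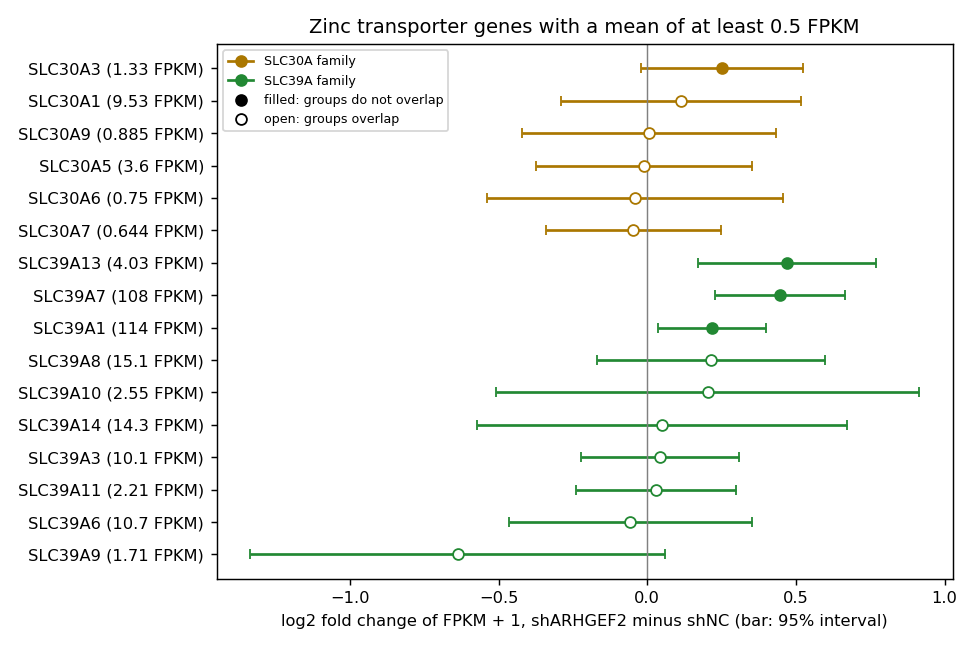
Log2 fold changes of FPKM + 1 (shARHGEF2 minus shNC) with 95% intervals for the 6 SLC30A and 10 SLC39A genes tested, with the mean FPKM over the 6 libraries beside each symbol and filled points where the groups do not overlap. SLC39A13 (0.47), SLC39A7 (0.44) and SLC39A1 (0.22) are the filled points of the SLC39A family, and SLC30A3 (0.25) is that of the SLC30A family.

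Genes that share the inducers or metals of the metallothioneins were counted in the same fit, and 0 were called in any of these lists. Of 9 other targets ascribed to MTF1, 7 were tested, with 0 at an unadjusted p under 0.05 in limma and a median log2 fold change of 0.14. SELENOW, a small selenoprotein, had 20.9 ± 1.79 FPKM in shNC and 17.9 ± 0.544 FPKM in shARHGEF2 cells (SD, n = 3 each; log2 fold change -0.21, limma adjusted p = 0.392), and PGF, a placental growth factor of the VEGF family, had 0.747 ± 0.145 and 1.02 ± 0.0383 FPKM (log2 fold change 0.21, limma adjusted p = 0.438). Of 9 copper-handling genes, 7 were tested, 0 at an unadjusted p under 0.05 in limma, with a median of -0.02. The 2 with the smallest p were COMMD1, a copper-binding scaffold (log2 fold change -0.21, limma adjusted p = 0.518), and the copper importer SLC31A1 (0.22, adjusted p = 0.601, falling to 0.12 without either shNC replicate 1 or shARHGEF2 replicate 2 and rising to 0.37 without shARHGEF2 replicate 1).

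Of 9 glucocorticoid targets, 8 were tested, and 3 had an unadjusted p under 0.05 in limma, 2 higher and 1 lower, beside 13.7% of all genes tested. Of the 8, 5 had a fold change above 0, as did 6102 of all 12291 genes tested. The groups were higher without overlap for 2 of the 8, beside 11.3% of all genes tested. The median log2 fold change was 0.08. DUSP1, a MAP kinase phosphatase, had 103 ± 12.0 FPKM in shNC and 138 ± 0.754 FPKM in shARHGEF2 cells (SD, n = 3 each; log2 fold change 0.42, limma adjusted p = 0.126). SGK1, a kinase that regulates ion transport, had 8.68 ± 1.89 and 6.06 ± 0.912 FPKM (log2 fold change -0.44, limma adjusted p = 0.284). PER1, a circadian clock gene named after its values were seen, had 6.38 to 14.3 FPKM in shNC and 14.4 to 22.7 FPKM in shARHGEF2 cells (log2 fold change 0.92, limma adjusted p = 0.290). Of 13 STAT3 and acute phase genes, 5 were tested and 1 had an unadjusted p under 0.05 in limma, beside 13.7% of all genes tested. This was JUNB, an AP-1 subunit (log2 fold change 0.34, limma adjusted p = 0.294). STAT3 itself, the transcription factor downstream of interleukin-6, had a log2 fold change of 0.15 (limma adjusted p = 0.597; 0.069 without shNC replicate 1), and the median of the list was 0.11.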

How the data were processed

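RNA from 3 shNC and 3 shARHGEF2 samples labelled HepG2 was sequenced by the authors as poly(A)-selected, strand-marking paired-end libraries with molecular identifiers. The deposited table gives FPKM values per gene and library, and the submitters' processing notes name cutadapt 1.9, HISAT2 2.0.4, UMI-tools, StringTie 1.3.4d, DESeq2, edgeR and hg19 without their roles. The authors' fold changes and p-values in the table were not used. Of the listed transcripts, 94.7% were found in GENCODE 29, which supplied lengths, GC content and GRCh38 gene positions.

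The FPKM values were tested as log2(FPKM + 1) with limma 3.58.1 (R 4.3.3, trended and robust variances, statmod 1.5.0) on the 12291 genes that averaged 0.5 FPKM or more over the libraries. Fold changes are on that scale, which understates those of low genes. Adjustment over all genes tested followed Benjamini and Hochberg, with a threshold of 0.05. Exact permutation tests were two-sided. The procedure was run on simulated data, with genes drawn independently and without a GC trend or replicate effect. That run therefore does not cover those features of the libraries. Named genes were the members, ARHGEF2, called genes and the 2 smallest p of each list, and the 5 genes most like the highest metallothionein. Members and lists were chosen with earlier results of these data known. Residuals of same-numbered libraries correlated at 0.18, 0.16 and -0.10, and those of differently numbered libraries between -0.22 and 0.068. These values do not settle whether libraries with the same number belong together. Libraries were not paired in the main fit, and a replicate block was run as an alternative. Figures and tables used Python 3.11.15, pandas 2.3.3, numpy 2.4.6 and matplotlib 3.10.9.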

Additional observations from a re-analysis of the deposited data

How the results depend on the processing

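No alternative called any of the 7 genes, and MT1E, MT1X and MT1F kept their direction in all 15. The genes called over the whole table, 34, became 1 with no filter beyond a value above 0, 54 with at least 1 FPKM in 3 or more libraries, 19 with quantile normalization, 6 with median scaling, 7 without trended or robust variances, 0 with the replicate block and 9 with the length trend removed, and between 6 and 102 with 1 library left out. The removal of GC and length trends was chosen after seeing the data. The replicate block, under which 0 members were called, cannot change a fold change in this balanced design and altered only the spread and the p-values. With the block the standard error was 0.093 in place of 0.15 for MT1X and 0.097 in place of 0.18 for SLC30A1. For MT1E it rose to 0.20 from 0.16. Under the block 2 of the 7 genes had an unadjusted p under 0.05 in limma, beside 1976 of all 12291 genes tested. ARHGEF2 lost its call under the block and with no filter, with the log2 fold change still at -1.47. Its limma adjusted p ranged from 0.00205 to 0.0716 over 15 alternatives. With 1 library left out, between 0 and 1 other zinc importers (SLC39A7 without shNC replicate 3) and between 0 and 2 glucocorticoid targets (DUSP1 and PER1, the second named after its values were seen) were called. Leaving out 1 library moved the log2 fold change of MT2A between -0.091 and 0.076, MTF1 between -0.053 and 0.10 (-0.010 with the length trend removed), SLC30A1 between -0.048 and 0.27, SLC39A14 between -0.19 and 0.22, MT1DP between -0.093 and 0.35 and SLC30A7 between -0.12 and 0.070. The log2 ratio of the summed metallothioneins was -0.05, and -0.39 in the sum without MT2A. That shift comes from leaving out MT2A, which was close to level and made up 90.5% to 93.6% of the full sum in each library. The cause of the other shifts was not tested. Without counts, depth per gene is known only as an estimate.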
